A study of Mus musculus with 6 samples.

Results

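Expression of 10 genes of the Notch pathway was followed in whole lungs of mouse embryos, wild type or labelled as knockouts of Mll3, a histone H3 lysine 4 methyltransferase. They were chosen by name as the receptors Notch1, Notch2 and Notch4, the ligands Jag1, Jag2, Dll1 and Dll4, and the targets Hes1, Hey1 and Nrarp, and all 10 were found among the 24521 genes of the normalised table. Lungs were taken at E18.5, before the first breath, and polyadenylated RNA was sequenced with strand information. The groups were 3 wild-type lungs and 3 lungs homozygous for the allele written Mll3FDC/FDC and labelled Mll3 KO. The labels do not explain the letters FDC, name no Cre line and give no strain, sex or litter. They do not state that the 3 samples of a genotype came from separate embryos. Every p-value here is therefore set against the spread among these samples, part of which may be technical.

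Notch receptors are cut after they bind a Jagged or Delta-like ligand on a neighbouring cell, and the freed intracellular part joins the DNA-binding protein RBPJ to switch on target genes. In the developing lung the pathway is known for arterial and capillary patterning, for the choice between secretory, ciliated and neuroendocrine airway cells, and for the muscle and pericyte coat of vessels. MLL3, encoded by Kmt2c, places H3 lysine 4 methylation mainly at enhancers.

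Library totals ran from 20158689 to 23305306 reads, and 19042 genes passed the filter on low counts, including all 10 members. Kmt2c reads ran from 3453 to 4104 in wild-type and from 3399 to 3504 in knockout libraries (log2 fold change -0.09, adjusted p = 0.74 by the quasi-likelihood test of edgeR), and counts over the whole gene cannot check an allele whose deleted part is not given. Knockout 3 held 59951 Xist reads and the other libraries 6 to 27. This gap is beyond technical spread, so knockout 3 was not a technical repeat of knockout 1 or 2. The lung marker genes Sftpc and Nkx2-1 were abundant in every library, with at least 232950 and 7534 reads. Sample titles carry either of 2 numbers, whose meaning is not stated. Wild types 1 and 2 and knockout 1 carry the lower number and are called the first title group, and wild type 3 and knockouts 2 and 3 carry the higher and are called the second. Each title group thus holds a single library of 1 genotype.

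None of the 10 Notch genes passed the test between genotypes. In the edgeR test 0 of 10 had an adjusted p under 0.05, against 0.368% of all genes tested (0.0630% higher and 0.305% lower in the knockout), and 0 of 10 had an unadjusted p under 0.05, against 10.7% of all genes. DESeq2 called 0 of the 10, against 2.12% of the genes to which it gave an adjusted p (0.369% higher and 1.76% lower). Likewise limma voom called 0 of the 10, against 67 of all 19042 genes tested. Of the 10, 6 were higher and 4 lower in knockout lungs by point estimate, with log2 fold changes between -0.09 and 0.23 and a median of 0.04, beside a median of 0.01 over all genes tested. Point estimates were higher in the knockout for 52.6% of all genes. The 95% intervals of the 10 genes, taken gene by gene, reached down to 0.69-fold (Hes1) and up to 1.41-fold (Dll1). Fewer cells of a type and less RNA per cell cannot be told apart in RNA from whole lungs.

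**Figure D1:**
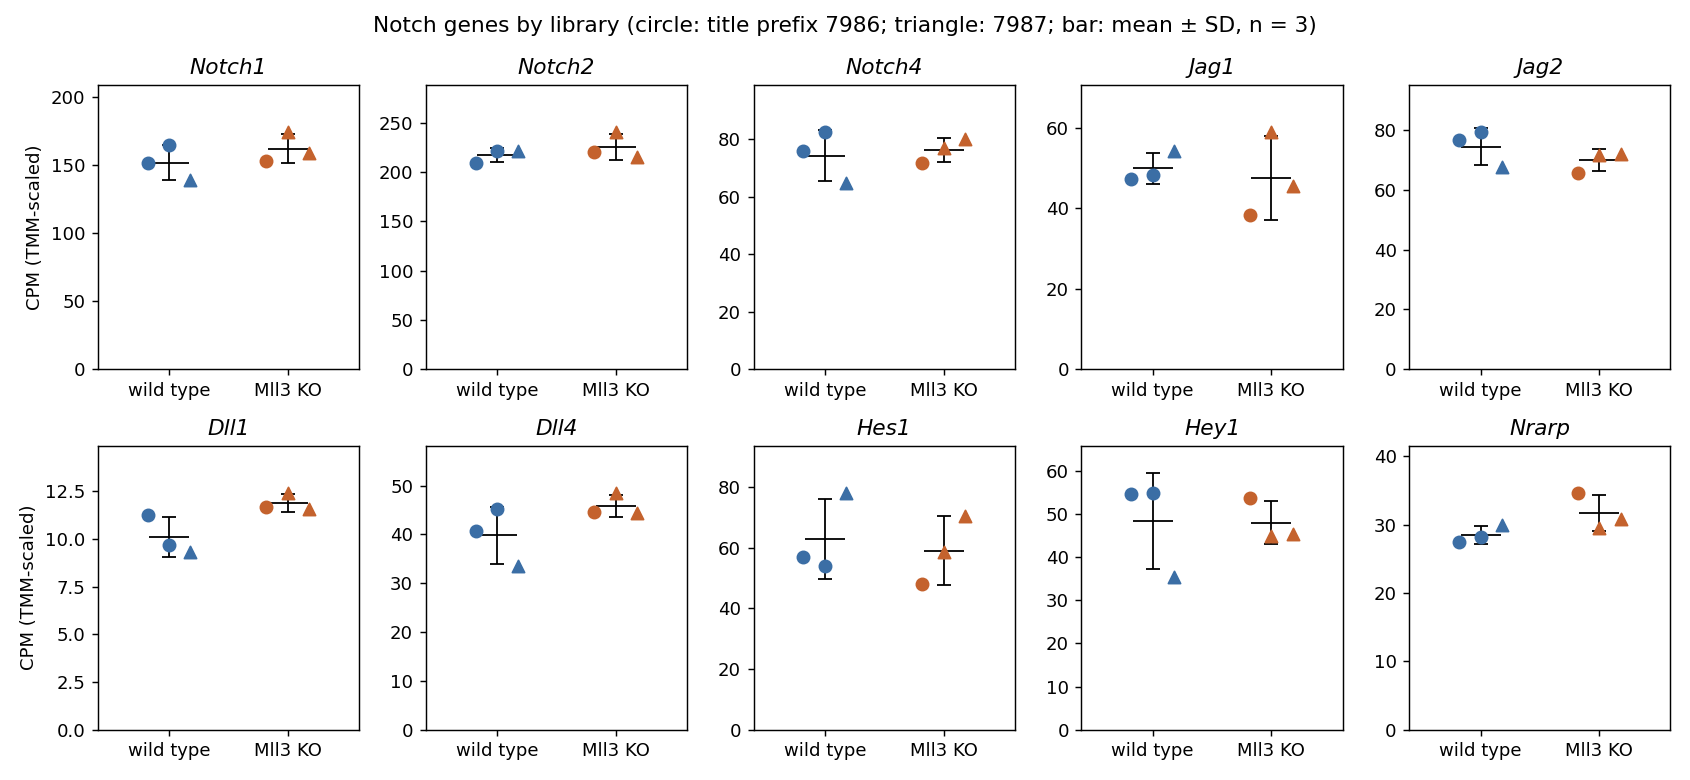
Expression of the 10 Notch genes in each library. The vertical axis is CPM (reads scaled to library size with TMM factors) from 0, blue points are wild-type and orange points knockout lungs, circles mark the first and triangles the second title group, and bars are means ± SD of 3 libraries. Only for Dll1 do the genotypes not overlap, with wild types at 9.31 to 11.3 and knockouts at 11.6 to 12.4 CPM.

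The members lie on 5 chromosomes of mm10, with 4 of them on chromosome 2. The 4 are Nrarp (ENSMUSG00000078202, 25180758 to 25183339), Notch1 (ENSMUSG00000026923, 26457903 to 26516663), Dll4 (ENSMUSG00000027314, 119325784 to 119335962) and Jag1 (ENSMUSG00000027276, 137081456 to 137116644). Chromosome 3 holds Hey1 (ENSMUSG00000040289, 8663359 to 8667256) and Notch2 (ENSMUSG00000027878, 98013527 to 98150361), and chromosome 17 holds Dll1 (ENSMUSG00000014773, 15367354 to 15376872) and Notch4 (ENSMUSG00000015468, 34564268 to 34588503). Jag2 (ENSMUSG00000002799, 112907819 to 112929776) lies on chromosome 12 and Hes1 (ENSMUSG00000022528, 30064384 to 30067796) on chromosome 16. Values are reads over the exons of the whole gene. Promoter sequences from RefSeq (GRCm38.p6, the assembly called mm10) matched 8 of the 10 members, all but Hes1 and Hey1, with 9 entries. The 250 bases before each start were searched on both strands. The core letters TGGGAA, recognised by RBPJ, occurred in 0 of the 9 windows and in 21.6% of all 32851 promoter windows of that length. The longer form GTGGGAA, which contains the core, was likewise in 0 of the 9 and in 5.4% of all. The letters GGGCGG, a GC box recognised by SP1-type factors, were in 5 of the 9 windows, those of Dll4, Jag2, Notch1, Notch2 and Nrarp, and in 32.7% of all. A match or its absence in this window is a description of letters only. The windows of Dll4 and Notch1, the pair of members whose levels were most alike across libraries, are shown 5′ to 3′ on the gene's strand with GGGCGG or its reverse complement in capitals. That of Dll4 covers chr2:119325534-119325783 on the plus strand, directly before the gene. That of Notch1 covers chr2:26503823-26504072 on the minus strand, inside the gene span given above.
Dll4: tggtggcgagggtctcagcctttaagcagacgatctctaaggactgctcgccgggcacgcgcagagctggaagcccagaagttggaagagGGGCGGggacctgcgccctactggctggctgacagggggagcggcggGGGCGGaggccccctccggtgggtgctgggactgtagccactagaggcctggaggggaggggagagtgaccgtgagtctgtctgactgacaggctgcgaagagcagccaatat
Notch1: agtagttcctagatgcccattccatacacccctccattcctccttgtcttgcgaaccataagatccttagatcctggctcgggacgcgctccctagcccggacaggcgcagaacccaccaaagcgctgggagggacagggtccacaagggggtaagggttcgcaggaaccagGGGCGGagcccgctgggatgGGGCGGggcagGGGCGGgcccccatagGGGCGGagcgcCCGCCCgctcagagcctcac
The Dll4 window holds 2 such boxes and the Notch1 window 5, and their GC contents are 65.6% and 66.0%, beside a mean of 53.2% over all windows.

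Among receptors, Notch1, which restrains endothelial sprouting and guides airway cell fate, was at 152, 165 and 139 CPM in wild types 1 to 3 (CPM, reads scaled to library size with TMM factors) and at 153, 174 and 159 CPM in knockouts 1 to 3. The lowest library was wild type 3 and the highest knockout 2, and the genotypes overlapped. The means were 152 ± 13.04 and 162 ± 10.8 CPM (SD, n = 3), a log2 fold change of 0.09 ± 0.08 (SE) with an edgeR adjusted p of 0.72. Notch2, a broadly expressed receptor of mesenchyme and epithelium, varied least of the 10 genes, with 209, 222 and 222 CPM in wild-type and 220, 241 and 216 CPM in knockout lungs. Its highest library was 1.15 times its lowest, and its log2 fold change was 0.05 ± 0.07 (SE, edgeR adjusted p = 0.84). Notch4, the receptor largely restricted to endothelium, was at 75.8, 82.5 and 64.8 CPM in wild-type and at 71.7, 76.9 and 80.0 CPM in knockout lungs. Wild types 2 and 3 were its extremes and enclosed all knockout values (0.03 ± 0.09, edgeR adjusted p = 0.93). Its estimate turned to -0.06 without wild type 3 and to -0.01 without knockout 3. The remaining receptor gene, Notch3 of pericytes and smooth muscle, was at 156 ± 18.4 and 147 ± 8.16 CPM (-0.09, edgeR adjusted p = 0.76).

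The ligands Dll1 and Dll4 had the highest point estimates of the 10 genes, and neither passed. Dll4, the ligand of arterial and sprouting endothelium, was at 40.6, 45.1 and 33.6 CPM in wild-type and at 44.7, 48.5 and 44.3 CPM in knockout lungs. The knockouts lay close together, while wild type 2 exceeded knockouts 1 and 3 and wild type 3 stood lowest. The log2 fold change was 0.20 ± 0.11 (SE), with a 95% interval of -0.03 to 0.44 and an edgeR adjusted p of 0.54. Without wild type 3 it was 0.09 and without wild type 2 it was 0.30. The difference of Dll4 between genotypes was 0.06 in the first title group and 0.46 in the second, where wild type 3 is the single wild type. With the title group as a term in the model the estimate was 0.26 (edgeR adjusted p = 0.24).

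Dll1, a Delta-like ligand of scattered epithelial and vascular cells, was the least abundant member, with 198 to 279 reads per library. It stood at 11.3, 9.72 and 9.31 CPM in wild-type and at 11.7, 12.4 and 11.6 CPM in knockout lungs. All knockouts exceeded all wild types, although wild type 1 lay close to the lowest knockout. The log2 fold change was 0.23 ± 0.12 (SE; 95% interval -0.03 to 0.50, edgeR adjusted p = 0.52). Dll1 was the 1 of 10 members without overlap, and 17.0% of all genes tested had genotypes that did not overlap (8.60% with the knockouts higher), so this share is near the background. Counting error alone is 7.1% at its fewest reads.

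The Jagged ligands were lower in knockout lungs by point estimate. Jag1, expressed in smooth muscle, endothelium and airway epithelium, was at 47.3, 48.4 and 54.4 CPM in wild-type and at 38.3, 59.0 and 45.5 CPM in knockout lungs. Knockouts 1 and 2 were its lowest and highest libraries, so that the knockout SD, 10.5 CPM, was above that of wild type, 3.80 CPM. Its log2 fold change was -0.07 ± 0.15 (SE, edgeR adjusted p = 0.91) and became 0.06 without knockout 1. Jag2, the second Jagged ligand, was at 76.6, 79.3 and 67.6 CPM in wild-type and at 65.7, 71.9 and 72.2 CPM in knockout lungs. Wild types 1 and 2 were above every knockout and wild type 3 was among them (-0.09 ± 0.08, edgeR adjusted p = 0.72).

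Of the targets, Hes1 and Hey1 varied widely within a genotype. Hes1, a repressor that holds back neuroendocrine and ciliated fates in the airway, was at 56.8, 53.8 and 77.96 CPM in wild-type and at 48.0, 58.6 and 70.5 CPM in knockout lungs. Wild type 3 and knockout 3 were high and knockout 1 was low, so that each genotype spanned most of the other's range. The means were 62.8 ± 13.2 and 59.0 ± 11.2 CPM (SD, n = 3; log2 fold change -0.09 ± 0.19, edgeR adjusted p = 0.91). Without wild type 3 the estimate was 0.09 and without knockout 1 it was 0.04. Within the title groups Hes1 was lower in the knockout in both, by log2 differences of -0.20 in the first and -0.28 in the second. With the title group as a term in the model its estimate was -0.24 (unadjusted p = 0.015 and adjusted p = 0.17 in edgeR). In that edgeR model 2 of the 10 members, Hes1 and Dll4 (unadjusted p = 0.031), had an unadjusted p under 0.05. So did 3182 of all 19042 genes tested, so Hes1 is not singled out by it. Hey1, a repressor that Notch induces in arterial endothelium, was at 54.6, 54.9 and 35.4 CPM in wild-type and at 53.7, 44.95 and 45.3 CPM in knockout lungs. Here wild type 3 was the lowest of all libraries, and the 3 libraries of the first title group were the highest. Its log2 fold change was -0.01 ± 0.17 (SE, edgeR adjusted p = 0.99). In the first title group the genotypes differed by -0.03 and in the second by 0.35. With the title group as a term in the model the estimate was 0.16 (edgeR adjusted p = 0.44).

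Nrarp, an ankyrin-repeat protein that is induced by Notch and feeds back on the receptor, was at 27.5, 28.1 and 30.0 CPM in wild-type and at 34.6, 29.6 and 30.8 CPM in knockout lungs. Knockout 1 was the highest library, and knockout 2 was just below wild type 3, the single overlap between genotypes. The log2 fold change was 0.15 ± 0.09 (SE; 95% interval -0.04 to 0.35, edgeR adjusted p = 0.59). It was 0.32 in the first title group, where knockout 1 is the single knockout, and 0.01 in the second, and it was 0.08 without knockout 1. With the title group as a term 0 of 10 members passed, against 3.28% of all genes tested. The lowest edgeR adjusted p of a member in that model was 0.17, for Hes1. The first title group had 4 of 10 members higher in the knockout (median log2 difference -0.04) and the second 8 of 10 (median 0.18). These counts rest on knockout 1 alone in the first and on wild type 3 alone in the second, and are given without a share over all genes. Wild type 3 was the lowest of all libraries for 5 of the 10 members (17.0% of all genes). The 3 targets thus had estimates of -0.09, -0.01 and 0.15, with intervals that overlap.

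**Figure D2:**
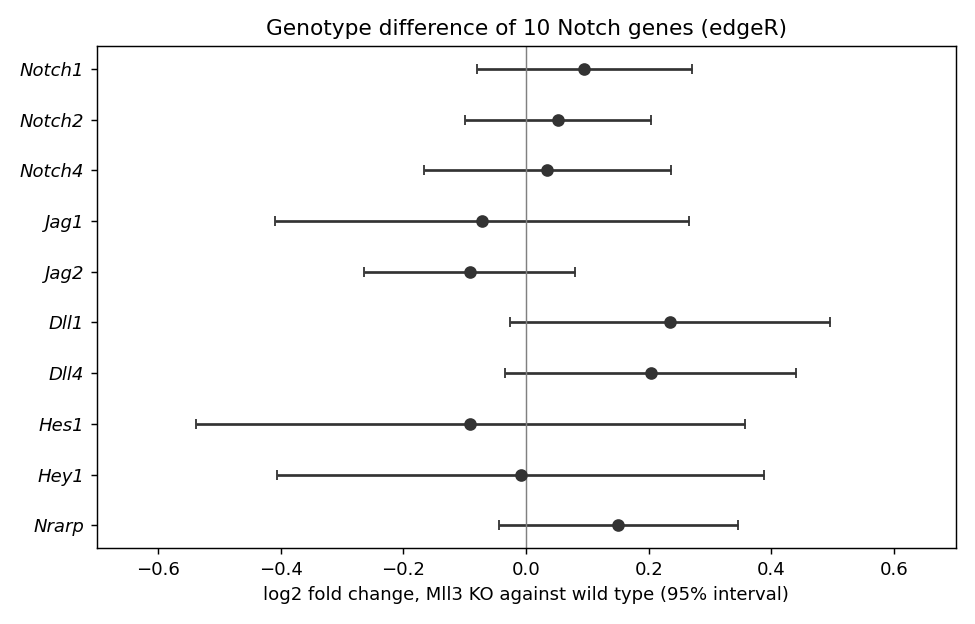
Log2 fold change of each Notch gene in knockout against wild-type lungs. Points are edgeR estimates from 3 libraries per genotype and bars their 95% intervals, which include 0 for all 10 genes and are widest for Hes1 (-0.54 to 0.36) and narrowest for Notch2 (-0.10 to 0.20).

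Levels were compared between genes per exonic length, as FPKM (CPM divided by exonic length in kilobases), over the 6 libraries. Hes1 was the most abundant of the 10 at 29.9 ± 5.48 FPKM (SD, n = 6), followed by Notch2 at 20.6 ± 0.98 FPKM, and their ranges did not overlap with each other or with the next gene. Hey1 followed at 14.7 ± 2.36 FPKM. Nrarp (11.7 ± 0.98), Dll4 (11.1 ± 1.34), Notch1 (11.03 ± 0.85), Jag2 (10.4 ± 0.74), Notch4 (9.34 ± 0.79) and Jag1 (8.38 ± 1.235) came next in FPKM, and each overlapped in range with its neighbour. Dll1, at 2.61 ± 0.29 FPKM, was below every other member in all 6 libraries. These levels are averages over all lung cells and do not rank the genes within any cell type.

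The make-up of the receptor and ligand pools, a measure chosen after the values were seen, was read per length, with Notch3 added to complete the receptors. Together the 4 receptors summed to 59.4 ± 4.30 FPKM in wild-type and 59.9 ± 2.95 FPKM in knockout lungs (SD, n = 3), and the 4 ligands to 32.0 ± 1.90 and 32.9 ± 2.84 FPKM. Both sums overlapped between genotypes. Notch1 made up 17.7 to 18.2% of the receptor sum in wild-type and 18.7 to 19.4% in knockout lungs, without overlap. Dll4 made up 29.1 to 34.8% of the ligand sum in wild-type and 35.0 to 38.2% in knockout lungs, also without overlap, and Jag2 32.4 to 34.0% and 28.7 to 32.0%. For each of these 3 shares the exact two-sided permutation test gave p = 0.1, the smallest that 3 against 3 libraries allow, and 0.27 after adjustment over the 8 shares computed. The other 5 shares overlapped. Shares within a sum are tied to each other, since a higher one lowers the rest.

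**Figure D3:**
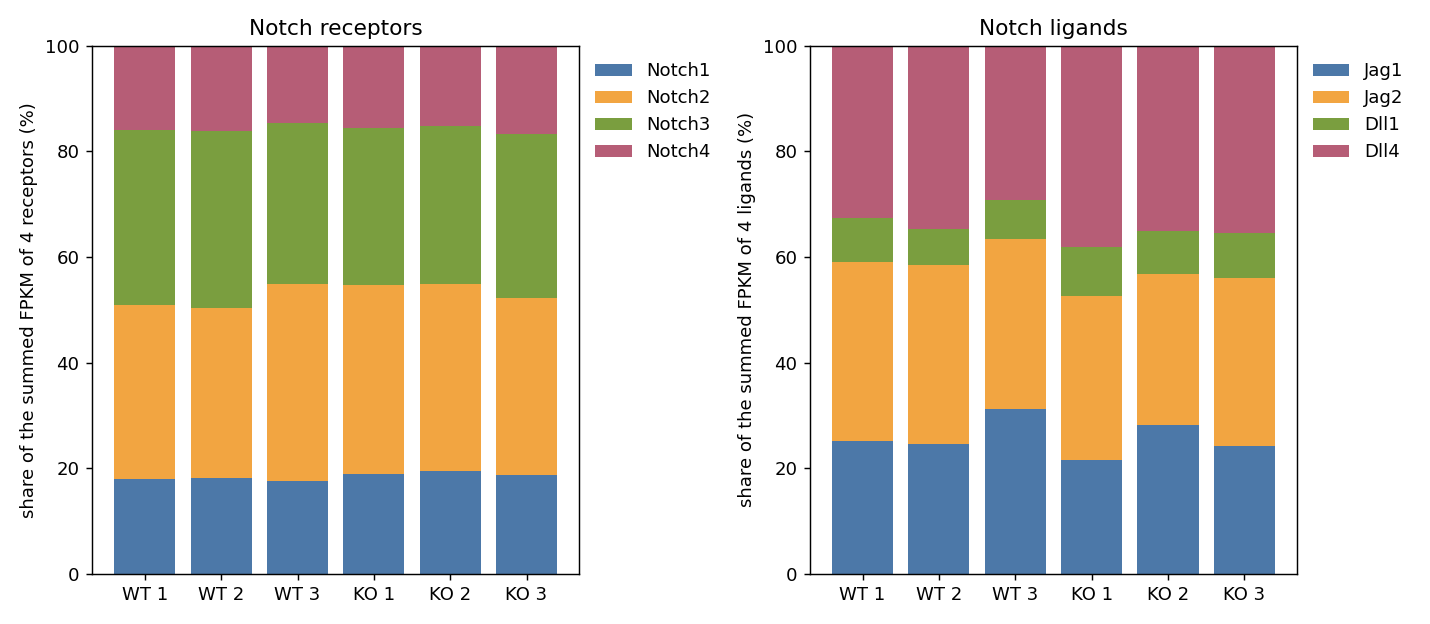
Share of each gene in the summed FPKM of the 4 Notch receptors (left) and of the 4 ligands (right). Each bar is 1 library (WT, wild type; KO, Mll3 knockout) and adds up to 100%. Notch2 and Notch3 take the largest parts of the receptor bars, and Jag1 has its largest ligand share, 31.1%, in wild type 3.

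The rest of the pathway was read from a list of 50 genes grouped by role, of which 45 were tested. In edgeR 0 of the 45 passed, against 0.368% of all genes tested. An unadjusted p under 0.05 was found for 2 of the 45, against 10.7% of all genes. For 3 the genotypes did not overlap, against 17.0% of all genes. By point estimate 25 were higher and 20 lower, with a median log2 fold change of 0.01. The 5 untested genes, Dll3, Hes2, Hes3, Hes5 and Hes7, had 1 to 56 reads over all 6 libraries. The 5 genes for enzymes that add sugars to the receptors had estimates of 0.02 to 0.07, with Pofut1 at 0.07 and the Fringe gene Lfng at 0.06 as those of lowest p. Of the proteases that cut the receptor, Aph1c (-0.17) and Ncstn (0.07), both of the gamma-secretase complex, had the lowest p, and none of the 9 passed. Rbpj itself was at 55.6 ± 5.54 and 55.5 ± 2.21 CPM (log2 fold change 0.00, edgeR adjusted p = 0.997), and none of the 12 nuclear genes passed. The other roles gave 0 of 8 for trafficking and turnover and 0 of 4 for ligand endocytosis.

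Dlk2 and Heyl had the lowest p of the whole list, and the calls on them depended on the model. Dlk2, a Delta-like protein without the region that canonical ligands use to activate the receptor, was at 14.8, 13.1 and 10.4 CPM in wild-type and at 6.66, 7.92 and 7.28 CPM in knockout lungs. Every knockout was below every wild type. The log2 fold change was -0.81 ± 0.15 (SE) with an edgeR adjusted p of 0.061. It passed in DESeq2 (adjusted p = 0.0011), in edgeR without the filter on low counts (7.9e-05) and in edgeR with the title group as a term (0.030), and it missed in the other 12 alternatives. Its relative Dlk1 was at 1191 ± 95.6 and 1290 ± 206 CPM (0.12, edgeR adjusted p = 0.79). Heyl, a Hes-related target known from pericytes and smooth muscle, was at 21.3, 22.1 and 18.8 CPM in wild-type and at 27.5, 25.7 and 23.2 CPM in knockout lungs, without overlap. Its log2 fold change was 0.30 ± 0.10 (SE, edgeR adjusted p = 0.29), and with the title group as a term it was 0.36 (edgeR adjusted p = 0.046). That model called 3.28% of all genes (0.746% higher and 2.54% lower in the knockout), 2 of the 45 listed genes, Dlk2 and Heyl, and 0 of the 10 members.

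**Figure D4:**
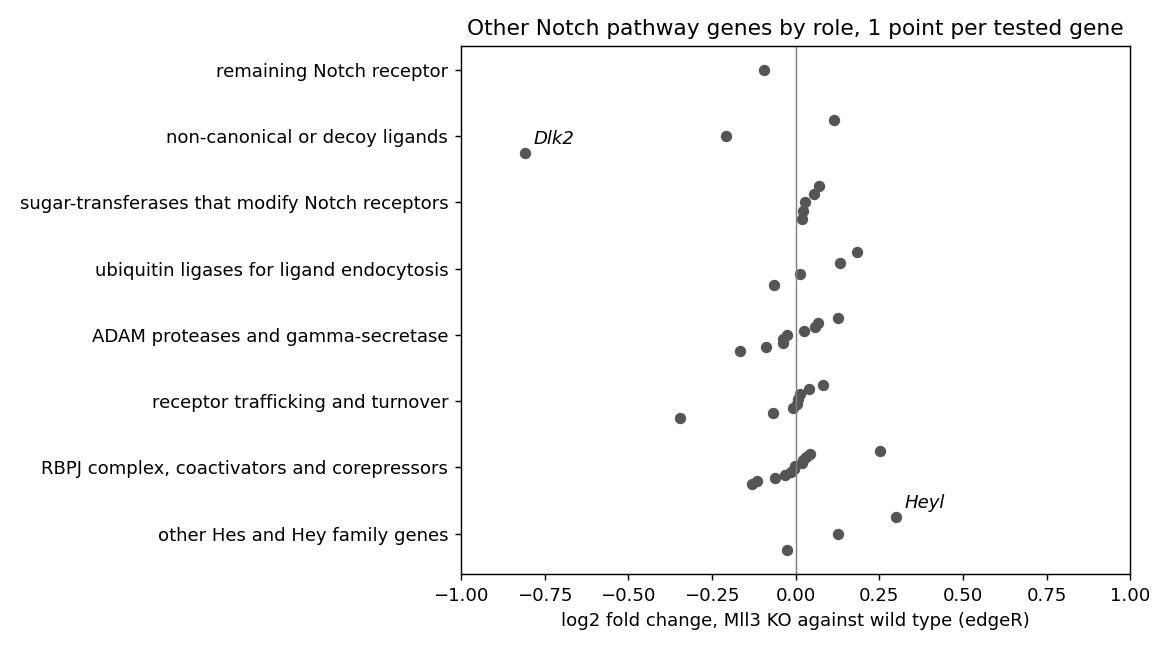
Log2 fold changes (edgeR) of the 45 tested Notch pathway genes outside the 10 members, 1 point per gene, in rows by role. Most points lie close to 0, Dlk2 is the lowest at -0.81 and Heyl the highest at 0.30.

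Across libraries the members fell into no single pattern. Knockout 2 was the highest library for 5 of the 10 genes (18.4% of all genes tested) and wild type 3 the lowest for 5 (17.0% of all genes). Wild type 3 was at the same time the highest for Hes1. Correlations of log2(CPM + 0.5) were computed for all 45 pairs of members over the 6 libraries, which share genotypes and title groups, and none passed after adjustment. The closest pair was Dll4 and Notch1, with Pearson's r = 0.93 (exact permutation p = 0.0056, adjusted p = 0.25) and Spearman's rho = 0.94 (exact permutation p = 0.017, adjusted p = 0.75). Without the 2 libraries farthest from the median of Dll4, r was 0.88. An unadjusted exact permutation p of r under 0.05 was found for 3 of the 45 pairs. The second of them was Jag2 and Nrarp, with r = -0.84 (exact permutation p = 0.028, adjusted p = 0.46). The third was Hes1 and Hey1, with r = -0.88 (exact permutation p = 0.031, adjusted p = 0.46) and rho = -0.77 (exact permutation p = 0.10, adjusted p = 0.88). Without the 2 libraries farthest from the median of Hes1, one of them wild type 3, r was -0.53. Per length, Hey1 was at 0.28 times Hes1 in wild type 3, at 0.60 and 0.64 times in the other wild types and at 0.40 to 0.70 times in knockouts. Each title group holds 3 libraries, too few for a correlation within it.

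The tested genes most like each member over the same 6 libraries, by Pearson's r of log2(CPM + 0.5), are given as a description with no test. For Dll4 they were Tbkbp1 (0.997), Zmym6 (0.988) and Kansl3 (0.986). For Notch1 they were Malt1 (0.995), Ciart (0.985) and Man2a2 (0.981), and for Hey1 Pip4k2a (0.996), Fblim1 (0.991) and Ccnyl1 (0.988). Hes1 was closest to Pcbp2 (0.994), Arrdc3 (0.994) and Igsf5 (0.990). For the other 6 members the closest genes were Ifitm6 (Notch2), Atg2a (Notch4), Sugct (Jag1), Elf4 (Jag2), Nmb (Dll1) and Cenpv (Nrarp), and none of the genes named here passed the edgeR test between genotypes.

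Several members are expressed mainly by endothelium, so markers of the lung's cell types were set beside them. Of 12 endothelial markers 9 were lower in knockout lungs by point estimate. Their log2 fold changes had a median of -0.14, and edgeR called 0 of them, against 0.368% of all genes tested. Of the 12, 4 had an unadjusted p under 0.05 (10.7% of all genes) and 4 had genotypes that did not overlap (17.0%). Among them Cldn5, a tight junction gene, was at 192 ± 1.89 and 164 ± 6.02 CPM (edgeR adjusted p = 0.16). Their summed level ran from 2587 to 3062 CPM in wild-type and from 2473 to 2624 CPM in knockout lungs, with wild type 3 the lowest wild type. Relative to this sum, Notch1 was at 5.26 to 5.39% in wild-type and 5.87 to 7.04% in knockout lungs, and Dll4 at 1.30 to 1.47% and 1.69 to 1.96%. Notch4 (2.50 to 2.70% and 2.75 to 3.11%), Dll1 (0.32 to 0.39% and 0.44 to 0.50%) and Nrarp (0.92 to 1.16% and 1.17 to 1.33%) did not overlap either. Thus 5 of 10 members were higher in all knockouts on this scale, against 21.7% of the other genes tested (24.0% in either direction). Leaving out each library in turn gave 5 or 6 members, against 23.2 to 48.7% of the genes higher in all knockouts, the 48.7% without wild type 3. In CPM, 4 of these 5 genes overlapped between genotypes, all but Dll1. Over the 6 libraries, as a description, the log2 CPM of Notch1 and Dll4 had Pearson's r of 0.02 and 0.00 with the endothelial sum, Dll1 -0.46, Nrarp -0.55 and Notch4 0.48. This scale, chosen after the values were seen, moves all genes up by 0.14 in log2 in the knockout, and Dll1 and Nrarp are not restricted to endothelium.

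**Figure D5:**
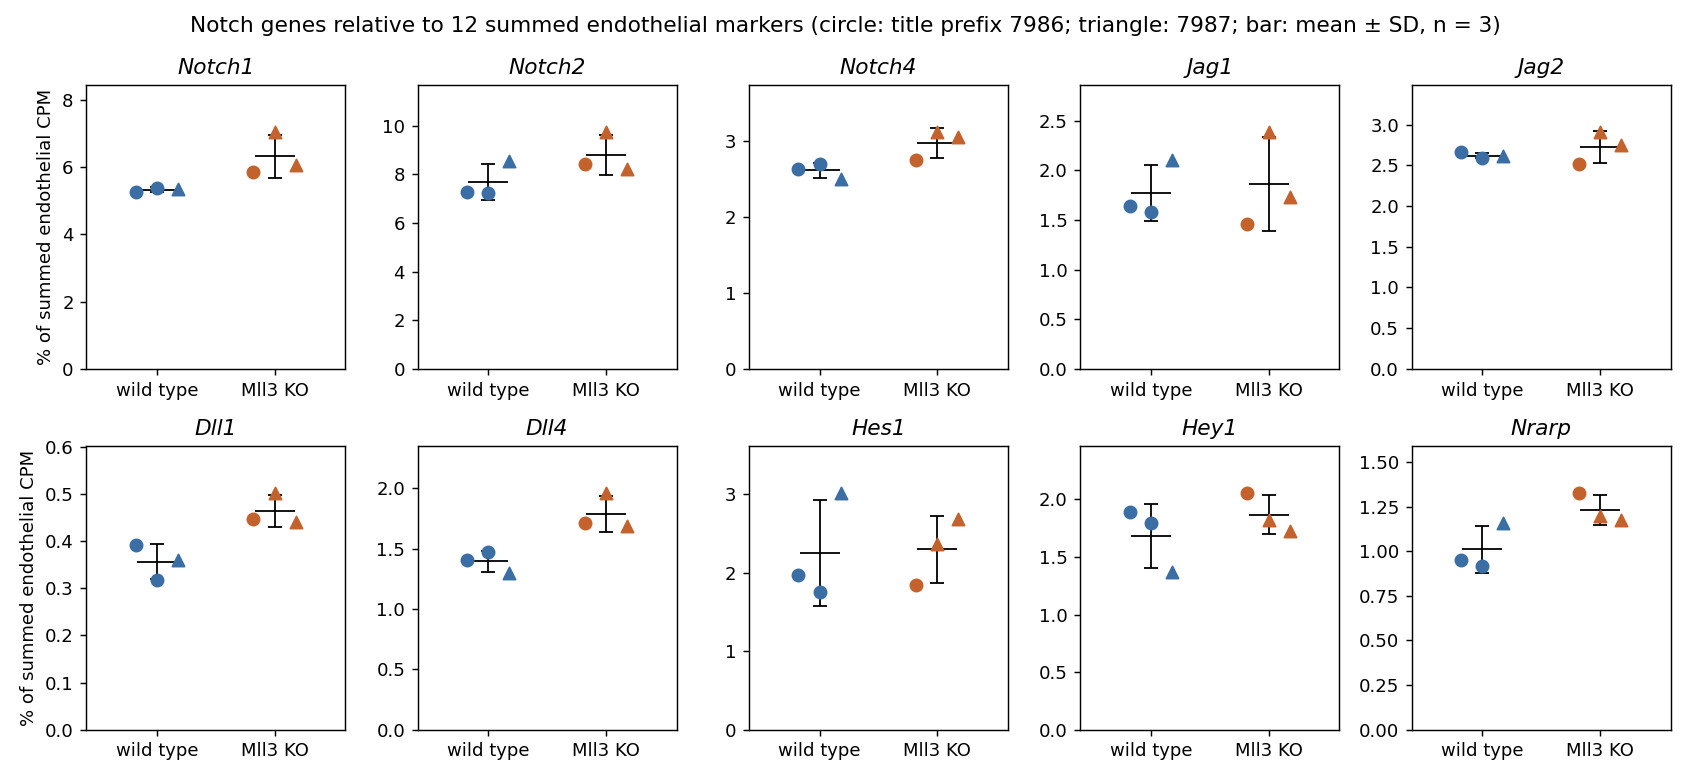
The 10 Notch genes as a percentage of the summed CPM of 12 endothelial markers, from 0, with symbols as in the plot of CPM by library. Knockout values of Notch1, Notch4, Dll1, Dll4 and Nrarp lie above all wild-type values, and those of Notch2, Jag1, Jag2, Hes1 and Hey1 overlap with them.

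Markers of other cell types also varied between libraries, and no marker in any list was at 0 reads in all 6. The sums below leave out genes that failed the filter on low counts. They keep 5 of 6 secretory airway, 7 of 8 neuroendocrine and 6 of 8 blood and immune markers. Arterial markers, which share Sox17 with the endothelial list, summed to 427 to 479 CPM in wild-type and 434 to 466 CPM in knockout lungs. Of these 7 genes 0 passed the edgeR threshold, against 0.368% of all genes tested. The pericyte and smooth muscle markers, which include the receptor gene Notch3, summed to 802 to 1312 and 816 to 910 CPM. The 8 ciliated airway markers, all lower in the knockout by point estimate, summed to 171 to 273 and 129 to 180 CPM and the secretory airway markers to 1101 to 1762 and 869 to 1397 CPM. Wild type 3, the library highest for Hes1, was the highest of all 6 for both of these airway lists, and knockout 1, the lowest for Hes1, was the lowest for both. The libraries between them did not keep this order. Knockout 3, with Hes1 at 70.5 CPM, summed to 160 CPM for ciliated and 1044 CPM for secretory markers. Wild type 1, with Hes1 at 56.8 CPM, summed to 195 and 1628 CPM. The part of these airway cells in the level of Hes1 was not tested. Mesothelial markers summed to 717 to 892 and 509 to 634 CPM without overlap, although 2 of the 6 were higher and 4 lower by point estimate. Most of the difference in this sum lay in Msln, at 364 ± 36.1 and 197 ± 39.7 CPM (edgeR adjusted p = 0.061), and in Krt19, at 291 ± 34.2 and 219 ± 9.95 CPM (edgeR adjusted p = 0.11), a keratin that is also in the epithelial list. Fibroblast markers summed to 5617 to 6074 and 4764 to 5332 CPM, without overlap. All 7 of them were lower in the knockout by point estimate, and edgeR called 0. Summed epithelial markers ran from 1651 to 1834 and from 1649 to 1748 CPM, with members on both sides of 0. Of these 8 genes 4 were higher and 4 lower in the knockout by point estimate (log2 fold changes -0.41 to 0.37). For 5 of the 8 the genotypes did not overlap, against 17.0% of all genes tested. An unadjusted p under 0.05 was found for 5, against 10.7% of all genes, and edgeR called 0, against 0.368%. Summed neuroendocrine markers ran from 30.0 to 39.9 and from 32.6 to 51.3 CPM, and blood and immune markers from 1966 to 2792 and from 1465 to 2436 CPM. Markers of tissues outside the lung were uneven. The 4 of 5 skeletal muscle genes kept summed to 232 CPM in wild type 1 and to 307 CPM in knockout 2. In the other libraries they summed to 13.3 to 20.0 CPM. The muscle gene left out was not the one with the fewest reads in that list. The fewest, 1939 over all 6 libraries, were those of Tnnt3, which was kept. The 4 of 5 liver genes kept reached 61.3 CPM in knockout 2. Of 5 thymus genes only Rag1 was kept, at or below 1.76 CPM. Knockout 2 was also the highest library for Notch1, Notch2, Jag1, Dll1 and Dll4. Wild type 1, with 232 CPM of the muscle genes, was highest for 0 of the 10 members (13.5% of all genes tested). It was lowest for 2 of them (16.5% of all genes). The part of the tissues outside the lung in these levels was not tested.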

How the data were processed

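Libraries were grouped by the genotype label, 3 wild type and 3 Mll3 KO, with replicate numbers in sample order. Tools credited in the submitters' processing notes are bcl2fastq 2.19.1, GSNAP and DESeq2 1.24.0. Per the file headers, the deposited table of whole-number counts per gene was made with featureCounts 1.6.3, reverse-stranded (setting 2), at a mapping quality of at least 1, with Ensembl 98 on mm10. The second table, a signal deposited by the authors as counts divided by 1 size factor per library, gave symbols. Multiplied back, at least 99.99% of its genes matched the counts within 0.1 read.

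The 92 spike-in rows were left out, and filterByExpr kept 19042 genes. Genotypes were compared by quasi-likelihood in edgeR 4.0.16 under R 4.3.3 (TMM, genotype only, Benjamini-Hochberg, threshold 0.05), tried on simulated counts. Standard errors are the log2 fold change over the square root of F. FPKM uses the exonic length given by the authors' deposited table. A member has 198 to 5263 reads per library, a counting error of 7.1 to 1.4%.

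Alternatives were DESeq2 1.42.0, limma 3.58.1 (voom, and log2 of the normalised signal + 1), other scalings and filters, the title group (the number in the sample title) as a term, and each library left out. All 10 members were named, with, in each list, up to 2 genes of lowest p and, for each member, the 3 genes most like it (Gm and Rik models left out). Members and lists were chosen with earlier results of these data known.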

Additional observations from a re-analysis of the deposited data

How the results depend on the processing

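The count of 0 Notch members with an adjusted p under 0.05 held in the 15 alternatives run, and of the 150 estimates for single members 137 kept their direction. The other 13 changed sign. Hey1 turned to 0.0256 with library size only, 0.0146 with limma voom, 0.0099 with limma on the normalised values, 0.16 with the title group as a term, and its estimates without one library ran from -0.19 to 0.0872. Leaving out one library gave -0.0614 to 0.11 for Notch4, -0.26 to 0.0589 for Jag1 and -0.24 to 0.0874 for Hes1. The number of members whose genotypes do not overlap, 1 (17.0% of all genes tested), became 2 with library size only (18.2% of all genes). It was 5 relative to the summed endothelial markers (24.0% of the genes) and 1 to 4 without one library (23.1 to 30.3% of all genes). These settings were all chosen for it after seeing the data.

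Among the other 45 pathway genes tested, 0 became 1 in DESeq2, 1 without a filter on low counts and 2 with the title group as a term. Over all genes, 70 calls became 357 in DESeq2, 443 without a filter and 625 with the title group, and 0 to 41 without one library (0 without wild type 2 and 0 without wild type 3 in edgeR, with unadjusted p under 0.05 for 1954 and 1629 genes, 3 without wild type 1, 11 without knockout 2, 27 without knockout 3, 41 without knockout 1). The cause was not tested. Counts recovered from the normalised table, an alternative added after seeing the data, called 0 members and 70 of all genes. Library size only moved the median of all genes by 0.03 in log2. The depth leaves Dll1 as the member with the largest counting error.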
